A study of Drosophila melanogaster with 3 samples.

Results

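The regions described here are weak candidate binding sites that recurred in all 3 replicates of a chromatin immunoprecipitation sequencing (ChIP-seq) study while none of the replicates called them strongly. They number 5447 of 100027 weak regions. They were chosen by measured values: candidate peaks with an irreproducible discovery rate (IDR) above 0.01 were taken from each replicate's ranked peak list, their summits were joined where neighbours lay within 150 bp, and a region was kept if all 3 lists gave it a summit. Regions within 500 bp of a summit that did pass an IDR of 0.01 in any replicate were dropped. The series has 1 group, whole embryos of Drosophila melanogaster, aged 0 to 24 h, from the strain tgo-GFP, which carries an insertion that makes a tgo-eGFP fusion protein, and 3 biological replicates of it. Chromatin was sonicated to 200 to 800 bp and precipitated with an anti-GFP antibody. Embryos without the fusion are not among the samples, so no comparison between genotypes was possible, and whole embryos of mixed age mix all tissues and stages. Because the recurrence, the signal and the IDR chose the regions, those values are given below as a description and were not tested.

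Tango (tgo) is the fly homologue of the mammalian protein ARNT, a transcription factor of the basic helix-loop-helix PAS (bHLH-PAS) family. It enters the nucleus and binds DNA as a pair with a partner such as Single-minded in the ventral midline, Trachealess in the trachea, Spineless in the antenna and leg, or Similar in the response to low oxygen. These pairs are known to bind short sites whose core is ACGTG or, for the Spineless pair, GCGTG. An IDR list ranks candidate peaks far beyond those that are called, and its tail holds positions of low enrichment.

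The recurring weak regions with the highest signal show what the upper end of the set looks like, and their summit windows hold none of the known core sites. The 6 shown had the highest mean signal percentile of all. A percentile is the share of weak peaks of the same list with a signal no higher. Each window is the 100 bp centred on the summit, on dm6 and the plus strand, from the NCBI RefSeq assembly, named by the nearest gene. Capitals would mark the sites ACGTG and, for the Spineless pair, GCGTG on either strand, and also the 5-mer CACTG, because it led the 5-mers over the pooled regions. Capitals appear in 2 windows only, those of mtgo and heca, each for 1 copy of CACTG. In the highest quintile of mean percentile, ACGTG was in 7.08% of windows and GCGTG in 9.29%. With such shares, 6 windows are too few to show a lack of these sites.
pnt at chr3R:23297723-23297822: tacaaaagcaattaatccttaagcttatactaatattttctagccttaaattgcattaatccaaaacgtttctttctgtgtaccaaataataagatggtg
mtgo at chr2L:16592124-16592223: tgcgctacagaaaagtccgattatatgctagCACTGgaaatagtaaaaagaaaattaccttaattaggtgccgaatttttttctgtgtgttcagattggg
Rbp9 at chr2L:2957702-2957801: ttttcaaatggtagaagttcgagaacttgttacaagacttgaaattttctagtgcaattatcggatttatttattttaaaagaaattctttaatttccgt
Gmppb at chr3R:4813182-4813281: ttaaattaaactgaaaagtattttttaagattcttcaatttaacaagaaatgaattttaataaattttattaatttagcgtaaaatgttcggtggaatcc
NetA at chrX:14633243-14633342: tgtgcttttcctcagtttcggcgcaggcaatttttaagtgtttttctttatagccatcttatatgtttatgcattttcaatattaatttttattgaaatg
heca at chr3R:30276958-30277057: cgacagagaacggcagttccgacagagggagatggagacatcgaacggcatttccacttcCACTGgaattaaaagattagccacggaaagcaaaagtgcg

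The strongest regions of the arms printed here that do hold TACGTG, the form of the site known for the Single-minded and Trachealess pairs, are shown for contrast, with TACGTG or its reverse complement in capitals. TACGTG was in 129 of the 5439 summit windows on the major arms (2.37%). That share was near the 2.15% of their flanks, the 2.34% of weak regions of 1 list and the 2.18% of all 100-bp tiles. The window at serp, which encodes a chitin-modifying protein of the tracheal lumen, lay at -21 bp from the start site, where a minus is upstream. The windows at lqf, CG5151 and l(1)G0289 were intronic, that at CG1986 was coding and that at Crtc, a coactivator of CREB, was a promoter window.
l(1)G0289 at chrX:10362895-10362994: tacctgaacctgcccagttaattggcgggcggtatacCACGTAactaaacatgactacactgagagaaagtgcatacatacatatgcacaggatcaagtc
CG1986 at chrX:9909548-9909647: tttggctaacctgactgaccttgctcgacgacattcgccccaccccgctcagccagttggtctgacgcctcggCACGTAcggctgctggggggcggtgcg
lqf at chr3L:7529476-7529575: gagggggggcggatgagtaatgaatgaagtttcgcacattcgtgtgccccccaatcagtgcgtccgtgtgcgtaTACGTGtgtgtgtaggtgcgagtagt
CG5151 at chr3L:16147879-16147978: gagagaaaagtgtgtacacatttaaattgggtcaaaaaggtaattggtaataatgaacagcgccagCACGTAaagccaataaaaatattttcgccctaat
serp at chr3L:19707986-19708085: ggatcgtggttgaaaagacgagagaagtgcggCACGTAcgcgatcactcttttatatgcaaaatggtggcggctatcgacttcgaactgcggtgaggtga
Crtc at chr3L:17669380-17669479: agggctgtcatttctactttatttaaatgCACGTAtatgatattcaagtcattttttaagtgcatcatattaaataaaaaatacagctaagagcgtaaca

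A last set carries TACACTG, in capitals on either strand, a 7-mer that holds CACTG and stood out at these summits in the counts given further on. It was chosen after its values were seen. The 3 are the strongest regions with it, on the same arms, that lie outside untranslated regions and are not shown above.
Slh at chr2L:2492726-2492825: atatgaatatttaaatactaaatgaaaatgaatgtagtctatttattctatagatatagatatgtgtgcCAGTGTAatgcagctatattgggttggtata
VhaAC45RP at chr3R:30164251-30164350: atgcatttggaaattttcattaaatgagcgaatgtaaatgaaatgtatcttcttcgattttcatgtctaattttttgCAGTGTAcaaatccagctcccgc
wry at chr2L:1839093-1839192: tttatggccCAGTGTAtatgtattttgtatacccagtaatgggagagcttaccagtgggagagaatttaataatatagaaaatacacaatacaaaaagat

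The ranked lists held 35134, 75958 and 33491 candidates in replicates 1, 2 and 3, of which 31419, 71097 and 30390 were weak. Joined at 150 bp, the weak summits formed 100027 regions, and 5557 of them, or 5.56%, drew a summit from all 3 lists. The distance rule removed 110 of these, 8 of the remaining 5447 lay off the major arms, and the other values cover the 5439 on 2L, 2R, 3L, 3R, 4, X and Y. A region on the arms spanned a median of 93 bp from its first to its last summit and at most 512 bp, and 4707 regions (86.5%) held exactly 1 summit per list. The nearest strong summit was a median of 7146 bp away, and 413 regions had one within 1000 bp. For comparison, the same distance rule left 18363 weak regions with summits in 2 lists and 71321 with a summit in 1 list on the arms. Strong summits of the thresholded lists, joined in the same way, formed 3463 regions on the arms found in at least 2 replicates, called core regions here.

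Of the weak candidates of each replicate, 17.6%, 8.56% and 18.2% lay in recurring regions in replicates 1, 2 and 3. The lower share in replicate 2 went with its list, which was the longest. The share was higher where the candidate itself was stronger. From the lowest to the highest quintile of each replicate's own signal it ran from 10.4% to 29.5% in replicate 1, from 3.67% to 19.6% in replicate 2 and from 11.5% to 27.7% in replicate 3. Recurring regions occurred in every quintile and were concentrated towards the top. Of them 34.0%, 51.1% and 30.9% lay in the highest quintile of the weak candidates of replicates 1, 2 and 3, and their median percentiles were 66.5, 80.7 and 64.5.

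The deposited signal value of the recurring regions had a median of 24.6, 25 and 24.1 in replicates 1, 2 and 3, against 19.8, 14.3 and 19.7 for weak regions of 1 list. The sources used here do not give its unit, so it is read only within a list. The medians of strong peaks were 91.8, 86.3 and 87.8. The median IDR of the recurring regions was 0.682, 0.606 and 0.692, so most were far from the threshold. The best of a region's 3 IDR values was under 0.05 for 781 regions (14.4%) and over 0.5 for 1927 (35.4%). All 3 were under 0.05 in 12 regions. The value nearest the threshold was an IDR of 0.0100109 inside the rule and 0.00999519 outside it. Across the regions, the signals of replicates 1 and 2 had a Spearman correlation of 0.353, those of 1 and 3 of 0.268 and those of 2 and 3 of 0.320, over 5439 regions that all had to be listed in each replicate, as a description. The percentiles of a region's 3 summits had a median SD of 19.9 points.

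Recurring weak regions lay at promoters less often than core regions and in coding sequence far more often. Promoters, defined as the stretch between 1000 bp before and 200 bp after the start site of any protein-coding transcript, held 21.8% ± 0.125 of the recurring regions (SD, n = 3 replicates) and 49.3% ± 1.36 of the core regions. The value was 21.8%, 22.0% and 21.8% in replicates 1, 2 and 3 for the recurring regions, against 49.0%, 48.1% and 50.8% for the core, so the groups did not overlap. The replicates of 1 recurring set share their regions and differ only in where each placed its summit, so this SD is not the spread between independent sets. The same holds for the SD and replicate values of the recurring regions on every other measure. Weak regions of 1 list had 9.46%, 17.9% and 11.3% at promoters, below the recurring regions in every replicate, and 12.8% of all bases of the arms were promoter.

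Coding exons outside promoters held 11.8% ± 0.0925 of the recurring regions, against 0.285% ± 0.0593 of the core regions, 18.9% ± 2.65 of the weak regions of 1 list (SD, n = 3) and 13.8% of the arms. Recurring regions thus stood between core and single-list weak regions on both measures in all 3 replicates. Introns held 39.2% ± 0.0919 of them, against 34.8% of core regions and 38.5% of the arms. Intergenic sequence held 24.5% ± 0.0743, against 14.3% of core regions and 29.6% of the arms. Among the regions, 3′ untranslated exons were rare, with 1.20%, against 4.06% of the arms.

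**Figure D1:**
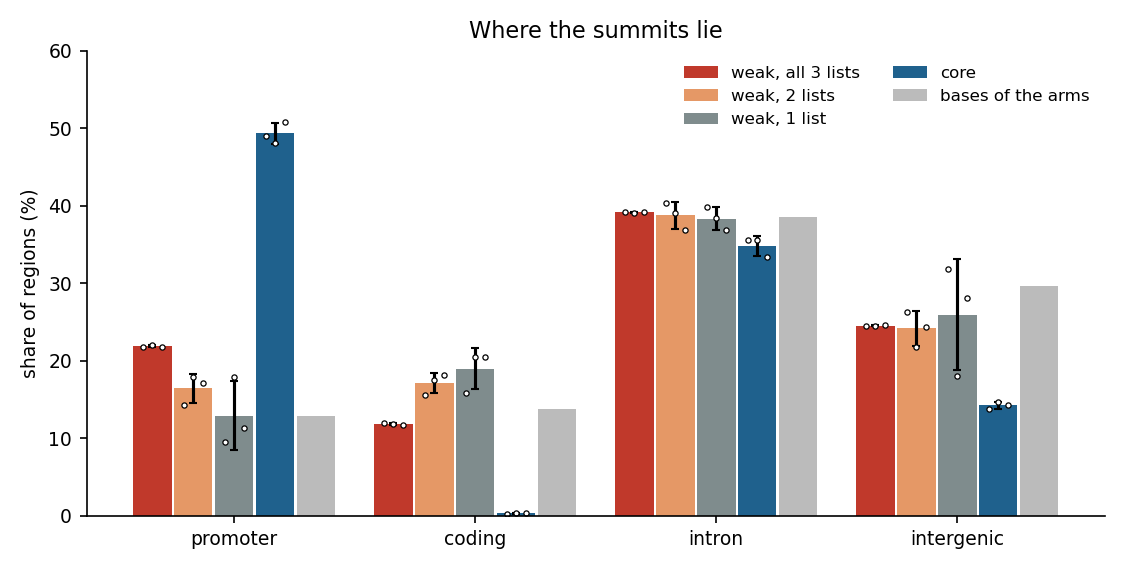
Share of summits in each kind of sequence (per cent), for weak regions in all 3 lists, in 2 lists and in 1 list, for core regions and for the bases of the arms. Bars are means over the 3 replicates, whiskers SD and points single replicates. The recurring regions sit at 21.8% in promoters and 11.8% in coding exons, between the core and the weak regions of 1 list.

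The same was seen by distance to the start site. The median distance to the nearest protein-coding start site was 2704 bp for the recurring regions, 790 bp for core regions and 3040 bp for weak regions of 1 list. Within 200 bp of a start site lay 667 recurring regions (12.3%), against 30.3% of core regions and 6.26% of weak regions of 1 list. Core regions were most frequent 200 to 50 bp upstream, where 22.9% of them lay, against 5.02% of the recurring regions and 1.94% of the weak regions of 1 list. In steps of 100 bp, the recurring regions were most frequent in the 100 bp just upstream of the start site, with 268 regions (4.93%), then in the 100 bp just downstream with 169 (3.11%). The core regions had 15.4% in the step that starts 200 bp upstream and 2.83% just downstream.

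Averaged over the set, the summits of recurring weak regions lacked the AT-rich centre of the core. The highest quintile by mean signal percentile did dip, with 38.2% GC at the summit and 42.2% in its flanks. The 100 bp at the summit had a GC content of 44.8% ± 0.305 in the recurring regions, against 31.1% ± 0.430 in core regions and 46.5% ± 0.868 in weak regions of 1 list (SD, n = 3). The values were 44.6%, 44.5% and 45.1% in replicates 1, 2 and 3, against 30.6%, 31.2% and 31.5% for the core. The flanks of the recurring regions, 2 windows of 100 bp centred 500 bp away, had 41.8% ± 0.0860 and all 100-bp tiles of the arms 42.1%. The summit was higher in GC than the flanks by 2.72, 2.72 and 3.37 percentage points in the 3 replicates. With weak peaks above the median signal only, the mean excess was 0.159 points, against 2.94 points with all weak peaks. In the profile, GC content was near level from 200 bp upstream (44.6%) through the centre (44.8%) to 200 bp downstream (44.5%), whereas core regions dipped to 30.6% at the centre with 44.7% at 300 bp upstream. Weak regions of 1 list peaked at the centre with 46.6%.

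**Figure D2:**
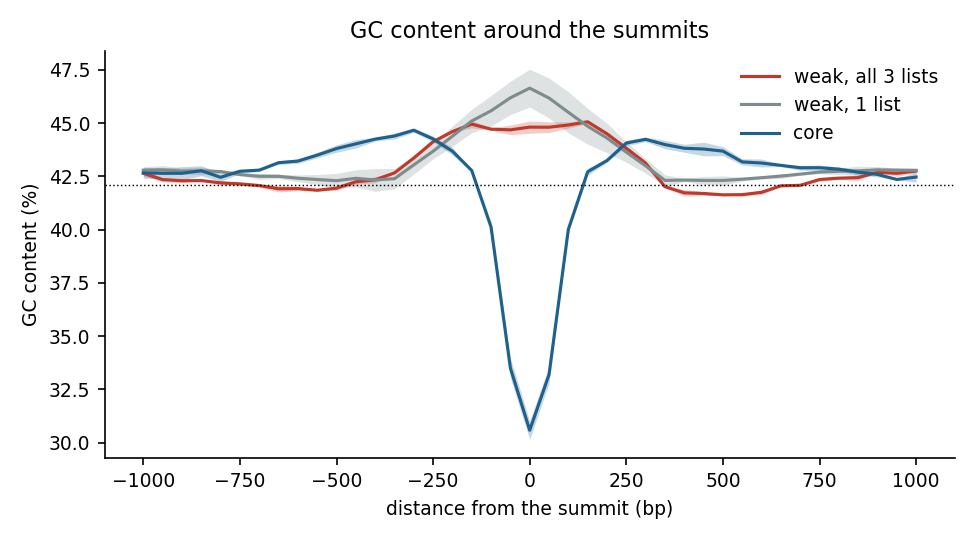
GC content (per cent) by distance from the summit (bp), for weak regions in all 3 lists, weak regions in 1 list and core regions. Lines are means over 3 replicates, bands SD, and the dotted line is the mean of all 100-bp tiles, 42.1%. The recurring regions form a plateau near 44.8%, where the core regions dip to 30.6%.

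ACGTG was little more frequent at these summits than in their flanks, and GCGTG was more frequent in every replicate. ACGTG on either strand was in 8.90% ± 0.409 of the recurring summit windows, against 8.18% ± 0.242 of their flank windows (SD, n = 3) and 8.14% of all 100-bp tiles. The difference between summit and flank was 0, 0.947 and 1.21 percentage points in replicates 1, 2 and 3, a size close to the spread between replicates. Core regions had ACGTG in 5.38% ± 0.390 of summit windows, fewer than the recurring regions in every replicate, and weak regions of 1 list had it in 9.25% ± 0.450. GCGTG was in 13.2%, 13.8% and 14.2% of the recurring windows in replicates 1, 2 and 3. Their flanks had it in 11.7%, 11.0% and 11.2%, so those did not overlap. The replicates share these regions, so neither this nor the ACGTG spread compares independent sets. The mean for GCGTG was 13.7% ± 0.477, against 11.3% ± 0.348 in the flanks and 5.40% ± 0.656 of core windows. It was 14.4% ± 0.369 of windows of 1 list and 11.0% of all tiles. Along the profile ACGTG was level, with 8.94% at 100 bp upstream, 8.90% at the centre and 8.90% at 100 bp downstream.

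These 5-mers are rich in GC, and the GC of the windows differed between the groups, so the shares were also read within bins of GC content. At 40 to 50% GC, ACGTG was in 8.91% of 1718 recurring windows (95% Wilson interval 7.65 to 10.3), against 9.64% of 415 core windows and 9.02% of tiles. At 50 to 60% GC it was in 12.2% of 1544 recurring windows (10.7 to 14.0), against 11.0% of tiles. At 30 to 40% GC it was in 5.71% of 1120 recurring windows (4.50 to 7.23), against 6.87% of core windows and 6.36% of tiles. In each of these bins the interval of the recurring regions held the value of the tiles. For GCGTG the recurring windows had 13.3% (11.8 to 15.02) at 40 to 50% GC, against 11.9% of tiles, and 18.7% (16.9 to 20.7) at 50 to 60% GC, against 17.9% of tiles. Intervals cover counting error only.

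**Figure D3:**
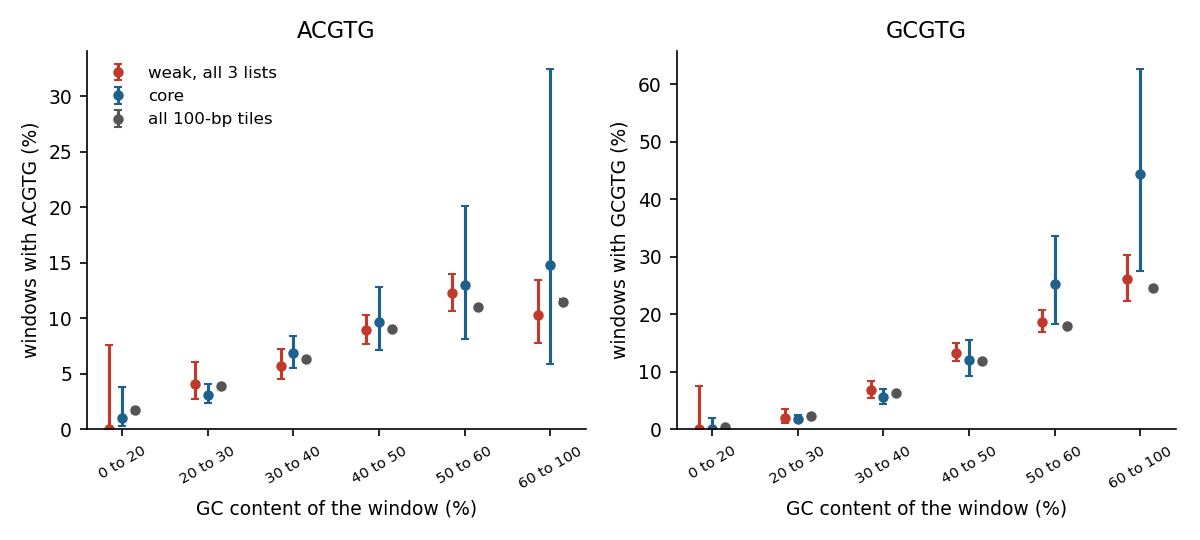
Share of 100-bp windows with ACGTG (left) and GCGTG (right) on either strand (per cent), by the GC content of the window, for weak regions in all 3 lists, core regions and all 100-bp tiles. Whiskers are 95% Wilson intervals. Within a bin the recurring regions lie near the tiles, for example 8.91% against 9.02% for ACGTG at 40 to 50% GC.

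Other short sites differed from the flanks in either direction. TACGTG was in 2.47% ± 0.140 of the recurring windows, against 2.21% of their flanks and 2.18% of tiles. The palindromic E-box CACGTG, the site of the Clock and Cycle pair, was in 1.58% ± 0.144, against 1.19% of flanks and 1.15% of tiles. TATCGA, part of the site of the promoter factor DREF, was in 4.14% ± 0.187, against 3.51% of flanks, 5.15% of core windows, 2.93% of windows of 1 list and 3.70% of tiles. GATAA, the GATA factor site, was in 15.8% ± 0.483 of the recurring windows and in 18.7% of their flanks. TATAA was in 19.8% ± 0.881, against 22.5% of flanks and 43.7% of core windows. Over all recurring regions, both AT-rich sites were thus below their flanks in every replicate, whereas CACGTG and TATCGA were above theirs. The directions changed with signal. In the highest quintile by mean signal percentile, TATAA was in 32.1% of windows and 22.5% of flanks, and GATAA in 19.3% and 16.7%. CACGTG was in 1.196% and 1.242% there. From low to high TATCGA was in 2.76%, 1.93%, 3.31%, 3.95% and 7.36% of windows and 3.58%, 3.54%, 3.35%, 2.803% and 3.496% of flanks. GAGAG, part of the GAGA factor site, was in 12.8%, against 11.7% of flanks and 7.33% of core windows, and CAGGTA, part of the Zelda site, in 2.29%, against 1.90% of flanks and 2.29% of tiles.

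Of all 512 5-mers, counted with their reverse complements, CACTG had the highest share at the summits of the recurring regions relative to their flanks when each region was counted once at its strongest summit. It was in 23.3% of summit windows and 16.04% of flank windows, a ratio of 1.45. The ratio was 1.47, 1.44 and 1.45 in replicates 1, 2 and 3, and in replicate 3 it was below that of CGCCC, 1.47. The next 4 were made of the letters G and C alone, with a ratio of 1.43 for CCCCC, a ratio of 1.37 for GCGCC, a ratio of 1.35 for CGCCC and a ratio of 1.34 for CCCGC. The lowest 5 were rich in A and T, with a ratio of 0.80 for ATTGA, a ratio of 0.83 for each of AGATA and also TTCAA and likewise AATTA, and a ratio of 0.84 for ACTTA. Of the known core sites, ACGTG stood at place 168 and GCGTG at place 92. The ratios ran from 0.80 to 1.45 in the recurring regions and from 0.22 to 2.37 in the core regions.

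CACTG became more frequent with the number of lists that shared a weak region. It was in 19.2% ± 0.606 of summit windows of 1 list, 20.9% ± 0.240 of those of 2 lists and 23.1% ± 0.355 of those of all 3 lists (SD, n = 3), with 15.9% of all tiles. The order held in each replicate, with 19.4%, 20.7% and 22.7% in replicate 1, 18.6%, 20.8% and 23.4% in replicate 2, and 19.7%, 21.1% and 23.3% in replicate 3. In windows of 20 bp along the recurring regions it formed a broad plateau, with 4.05% at 100 bp upstream, 4.71% at the centre, 4.09% at 100 bp downstream and 3.15% at 200 bp upstream. Core regions had a different shape, with 2.52% at the centre and 8.23% at 80 bp downstream and 7.75% at 100 bp upstream. The positions, the classes and the longer words around CACTG were examined after its place among the 5-mers was known, and no test was made.

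**Figure D4:**
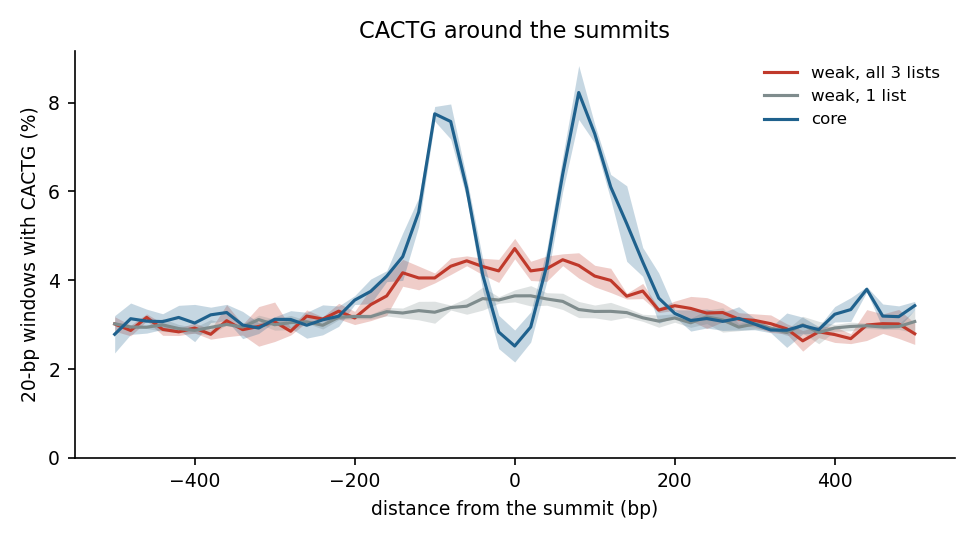
Share of 20-bp windows with CACTG on either strand (per cent) by distance from the summit (bp), for weak regions in all 3 lists, weak regions in 1 list and core regions. Lines are means over 3 replicates and bands SD. The recurring regions form a plateau around 4.71% at the centre, whereas core regions drop to 2.52% there between shoulders that reach 8.23%.

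The planned differences were tested over the 3 replicates by a two-sided exact paired permutation test, which cannot go below p = 0.25 with 3 pairs. The 14 differences compare GC content, both core sites, promoters, coding exons and soft-masked repeats with core regions and with weak regions of 1 list, and GC content and ACGTG with the flanks. The exact p was 0.25 for all of them except ACGTG at summit against flank, where it was 0.5. Adjusted over the 14 by the Benjamini-Hochberg method, the p-values were 0.269, and 0.5 for that exception. No difference could therefore pass 0.05 in this design, and each is described by its replicate values. Both values of a pair come from the same replicate's lists.

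Within the recurring regions, the composition changed with the signal that the lists gave them. Ordered by mean signal percentile and cut into quintiles of 1088 regions (1087 in the top quintile), the GC content of the summit window was 48.1%, 46.9%, 45.8%, 44.0% and 38.2% from low to high. Promoters held 15.3%, 16.5%, 20.5%, 23.7% and 33.3%, and coding exons held 19.9%, 15.1%, 12.9%, 9.28% and 2.21%. The top quintile was thus the part of the set with values nearest to the core regions. TATAA was in 13.5% of windows in the lowest quintile and 32.1% in the highest, and TATCGA in 2.76% and 7.36%. ACGTG was in 9.65% in the lowest quintile and 7.08% in the highest. GCGTG was highest in between, in 12.2%, 15.99%, 15.8%, 13.1% and 9.29% from low to high, and its share in the flanks was 10.9%, 9.79%, 12.9%, 12.3% and 11.6%. The flanks of the top quintile had 42.2% GC and 8.10% ACGTG. The signal was also part of the choice of regions, so these are descriptions.

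**Figure D5:**
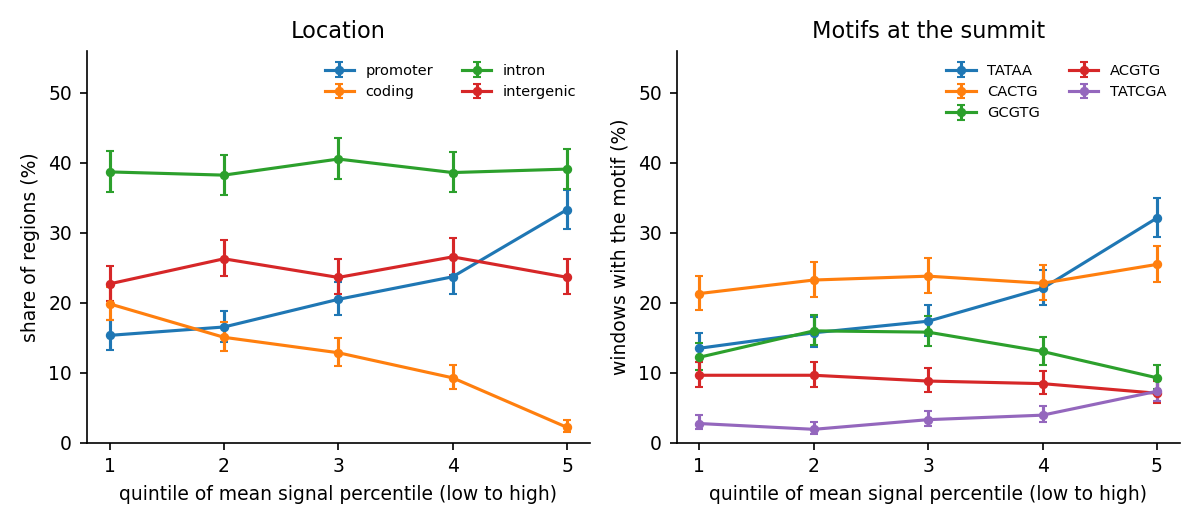
Share of recurring weak regions by kind of sequence (left) and by motif in the 100 bp at the summit (right), in per cent, for quintiles of the mean signal percentile from low (1) to high (5). Whiskers are 95% Wilson intervals. Promoters reach 33.3% and coding exons 2.21% in the highest quintile, and TATAA reaches 32.1%.

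Within quintiles of signal, the recurring regions and the weak regions of 1 list differed most among strong candidates. They did not differ on every measure in the middle of the range. Quintiles are broad, and signal was not matched within them. In replicate 1 the 95th percentile of signal was 43.7 over recurring regions and 30.8 over regions of 1 list. What this remaining difference in signal contributes, above all in the highest quintile, was not tested. Among candidates in the highest quintile of their own list's weak signal, GC content was 41.6% ± 0.660 in recurring regions and 46.5% ± 0.837 in regions of 1 list, and coding exons held 6.66% ± 0.143 and 14.9% ± 1.70 (SD, n = 3). CACTG was in 24.8% ± 0.323 and 20.5% ± 1.06 of these windows, and TATCGA in 5.34% ± 0.477 and 3.16% ± 0.478. Promoters held 27.5% ± 0.114 of the recurring regions and 17.1% ± 8.28 of those of 1 list, a wide spread. In the lowest quintile, GC content was 47.1% ± 0.400 and 46.0% ± 1.05, and promoters held 17.6% ± 1.22 and 11.9% ± 3.69, while coding exons held 17.6% ± 0.341 and 19.0% ± 2.19 and CACTG was in 22.4% ± 1.54 and 18.8% ± 1.30. In the middle quintile, GC content was 46.8% ± 0.804 in recurring regions and 46.8% ± 0.910 in those of 1 list, and TATCGA was in 2.62% ± 0.599 and 2.67% ± 0.585, differences within the spread. CACTG in the quintile next to the lowest was in 19.4% ± 1.19 and 18.2% ± 0.598, also close. In replicate 2, promoters in the middle quintile held 14.1% of recurring regions and 16.7% of those of 1 list. In the quintile next to the highest they held 16.8% and 19.1% in that replicate. Replicates 1 and 3 had the larger promoter share in recurring regions in both quintiles.

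Repeats covered less of the recurring regions than of the core regions, and more than of the weak regions of 1 list. Of the bases in their summit windows 14.6% ± 0.190 were soft-masked in the reference, against 26.3% ± 0.409 in core windows, 13.1% ± 0.531 in windows of 1 list and 20.96% of all tiles. The recurring regions exceeded those of 1 list by 1.02, 1.91 and 1.73 percentage points in replicates 1, 2 and 3. Annotated transposable elements held 25 of the regions (0.460%), against 0.260% of core regions and 1.08% of weak regions of 1 list. Along the arms the density was 43.8, 41.0, 42.0 and 42.0 regions per Mb on 2L, 2R, 3L and 3R. On X it was 35.5 per Mb (95% exact Poisson interval 33.1 to 38.0), below those of the large autosome arms. Weak regions of 1 list were also sparser on X, with 491 per Mb against 528 to 565 on those arms. Core regions had 28.8 per Mb on X and 23.9 to 26.9 on those arms. Chromosome 4, which is largely heterochromatic, held 6 regions (4.45 per Mb) and Y held 1. On chromosome 4, core regions had 5.19 per Mb and weak regions of 1 list 312 per Mb. Neighbouring regions were a median of 6100 bp apart, and 416 (7.65%) had another within 1 kb.

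By name, the strongest recurring region lay in an intron of pnt, which encodes an ETS transcription factor of the EGF receptor pathway, at -2535 bp from the nearest start site, where a minus is upstream (peak at chr3R:23297603-23297942). Its signal was 49.5, 63.7 and 51.5 in replicates 1, 2 and 3, with IDR values of 0.0280, 0.0845 and 0.721, so it ranked in the top 2% of weak candidates in every replicate although none passed. The region in NetA, which encodes the axon guidance protein Netrin, had 49.2, 46.8 and 56.8 with IDR values of 0.0733, 0.0119 and 0.0128. The region in Pdp1, a bZIP factor of the circadian clock, had 56.8, 54.4 and 44.5 and lay 722 bp from a strong summit, so close neighbours of called peaks occur among the top. Promoter regions among the top 15 were those of Gmppb, a GDP-mannose pyrophosphorylase subunit, heca, Sym, which encodes the RNA 3′ end processing protein symplekin, sowah, Rlip and RpL37-1, a ribosomal protein gene. Introns of mtgo, of Rbp9, an RNA-binding protein gene of the ELAV family, and of SNF4Agamma, which encodes the gamma subunit of the kinase AMPK, held 1 each. The region whose nearest start site was that of CG1690 lay in an intron of trpl, which encodes an ion channel of photoreceptors, at 1797 bp. A pair was intergenic, at -14163 bp from RFeSP, the Rieske protein gene of the respiratory chain, and at 7339 bp from Cmtr1. None of the 15 held ACGTG or GCGTG in its window, where the top quintile as a whole had 7.08% and 9.29%.

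Regions were assigned to a gene where their summit fell inside it or up to 2 kb before its start. By this count 3462 of 13968 protein-coding genes (24.8%) had a recurring weak region and 3224 (23.1%) had a core region. The 1156 with both were 33.4% of the genes with a recurring weak region and 35.9% of those with a core region. The count moved with gene length. From the shortest to the longest quintile of genes the share with a recurring weak region was 10.4%, 13.6%, 17.5%, 25.6% and 56.9%. The median length was 5321 bp for genes with such a region, 4030 bp for genes with a core region and 2164.5 bp for all genes. Most such genes, 2464, had 1 region, and 133 had 5 or more.

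The genes with most recurring regions were long. kirre, an immunoglobulin-type adhesion gene of muscle founder cells, had 17 in 394149 bp, which is 4.31 per 100 kb of gene, against 3.95 per 100 kb over all arms, and also held 16 core regions. Ptp61F, a tyrosine phosphatase gene, had 16 in 132765 bp (12.1 per 100 kb) and Tet, a dioxygenase gene, 14 in 92952 bp (15.1 per 100 kb). fz2, which encodes a Wingless receptor, had 13 recurring regions and 0 core regions, the only gene of these 10 without a core region. Sema1a, a semaphorin gene, and sick had 13 each, heph 12, the ecdysone-induced nuclear receptor gene Eip75B 11, the translational repressor gene pum 11 and CG32264 10.

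Among the 11 bHLH-PAS genes, 7 had a recurring weak region, against 24.8% of all genes, and 6 had a core region. With only regions within 1 kb of a start site counted, 1 of the 11 (9.09%) had one, below the 13.1% of all genes, so the direction turned. Their median length was 21309 bp, against 2164.5 bp for all genes. sima, the fly HIF-1 alpha gene, had 5, and its strongest lay in an intron with a signal of 37.5, 44.6 and 35.6 in replicates 1, 2 and 3. tai, a coactivator gene, had 4 and trh, the tracheal partner of tgo, had 3. The strongest of trh (peak at chr3L:380106-380445, signal 29.8, 20.5 and 23.3) was intronic and held ACGTG at its summit. gce, a juvenile hormone receptor gene, sim, the midline partner, ss, the antennal partner, and dysf had 1 each. The region in sim was coding and its signal varied, with 18.7, 26.9 and 30.1. tgo itself, Clk, cyc and Met had 0. ss held a recurring weak region and 0 core regions.

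The lists of genes from tissues in which tgo and its partners are known to act had shares above that of all genes, and their median lengths, from 10739 to 21324 bp, exceeded the 2164.5 bp of all genes. Of 20 ventral midline genes 14 (70%) had a recurring weak region, and of 20 tracheal genes 13 (65%). Salivary gland and duct genes had 8 of 14 (57.1%) and antenna and leg genes 9 of 13 (69.2%). Hypoxia and insulin response genes had 9 of 14 (64.3%). The share was 24.8% of all genes and 56.9% of the longest quintile of genes. In the same order, 9, 7, 5, 5 and 10 genes of these lists had a core region, against 23.1% of all genes. Midline examples were wrapper, a midline glia gene, with a promoter region of signal 33.7, 43.8 and 41.9, and rho, an EGF ligand protease gene, with 46.0, 36.3 and 30.3, neither of which held a core region. In the tracheal list sty, which encodes the FGF and EGF pathway antagonist Sprouty, had 47.5, 49.2 and 38.8 in an intron, and tkv, a Dpp receptor gene, had 5 regions. hth, a homeobox cofactor gene in the salivary gland, antenna and Hox lists, had 8, and dac had 4. In the hypoxia list bnl, the FGF ligand gene, and InR, the insulin receptor gene, had 5 each. With only regions within 1 kb of a start site counted, 8 of the midline genes, 5 tracheal, 2 salivary, 1 antenna and leg and 7 hypoxia genes had one, against 13.1% of all genes.

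Other lists lay on either side of the share of all genes. Of 16 ecdysone and juvenile hormone genes 14 had a region, with Eip74EF at 8 and Kr-h1 at 5, and of 17 mesoderm and muscle genes 13, with Mef2 at 4 and zfh1 at 3. Hox and cofactor genes had 7 of 10, with Ubx at 5 and Antp at 4. The EGF receptor pathway had 10 of 17, the Notch pathway 9 of 16, segmentation 7 of 19, the circadian clock 5 of 11, and Polycomb and trithorax 6 of 19. In the order given, 11, 10, 5, 11, 6, 1, 5 and 11 genes of these lists had a core region. The lists below the share of all genes were these. Cytosolic ribosomal protein genes had 18 of 92 (19.6%), with 50 of 92 for core regions, and mitochondrial ribosomal protein genes 11 of 73, with 21 for core. Glycolysis genes had 2 of 13, Pgk and Eno, against 7 for core. Receptor genes for odours and tastes had 15 of 179 (8.38%), cuticle protein genes 23 of 118 (19.5%), and both had few core regions, 4 and 3. Histone genes had 1 of 115, with 1 for core. They are mostly near-identical copies with a median length of 529 bp. What read placement or length contributes to their count was not tested. In all, 14 of the 20 lists lay above the 24.8% of all genes and 6 below. With only regions within 1 kb of a start site counted, 10 lists lay above the 13.1% of all genes and 10 below, and the bHLH-PAS, antenna and leg, Hox and segmentation lists turned from above to below. No list was tested, and what gene length contributes to these counts was not tested.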

How the data were processed

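Anti-GFP ChIP-seq was analysed from the deposited peak lists of 3 replicates on dm6, which the deposited readme says were made from each replicate's filtered alignments with a control. The sources used here do not give the aligner, the peak caller, the read depth or which rankings each IDR list paired. The deposited signal value is the authors' enrichment measure per peak, used only within a list. The authors give the global IDR as −log10 in the deposited ranked lists. Positions are summits; a region's summit in a replicate is that list's strongest. Coordinates, genes (Ensembl 115, BDGP 6, protein coding) and sequence (RefSeq) share the dm6 arm lengths, and every deposited peak ended within its arm. Classes take promoter, 5′ UTR, coding, 3′ UTR, intron and intergenic in that order. Python 3.11.15, numpy 2.4.6, pandas 2.3.3 and scipy 1.17.1 were used. Of the listed gene symbols 4 were matched through synonyms and 1 was not matched. Named genes are the 15 strongest regions, the 10 genes with most regions, every bHLH-PAS gene and up to 4 genes per list with the strongest region. The regions, lists and tests were chosen with earlier results of these data known. Grouping and motif functions were tested on simulated data. Alternatives changed linkage, distances, IDR, windows, promoters and replicates.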

Additional observations from a re-analysis of the deposited data

Results flagged for a closer look

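The authors' whole-series lists were not used to choose the regions or in the comparisons above, and they do list some of them. The conservative thresholded list of 5302 peaks had a summit within 150 bp of 389 recurring weak regions (7.15%), and any of the 4 whole-series thresholded lists had one near 627 (11.5%). These lists draw on the same replicates, so they are no independent evidence. The share near their summits was not measured for weak regions found in fewer ranked lists. Whether 7.15% or 11.5% is particular to recurring regions was therefore not tested. The 389 regions had a GC content of 34.9%, against 45.3% in the other 5050, and 34.4% of them lay at promoters, against 20.9%. Coding exons held 0.771% of the 389 and 12.7% of the others. ACGTG was in 7.20% and 8.85%, and TATCGA in 5.66% and 3.72%. Their median mean signal percentile was 93.7, against 63.6 in the others. All of the 15 strongest regions named above were among the 389, those in pnt, NetA and Pdp1 included. The sources used here do not say which replicates each whole-series list compares.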

How the results depend on the processing

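Of 166 values of the 14 differences under other settings, 163 kept their direction. The 166 include the setting with no replicate block, which changes only the test. Its values for the 14 differences equal the main ones and could not reverse. The reversed ones all concern GCGTG in recurring regions against weak regions of 1 list, which was -0.65 percentage points and became 0.0743 with linkage at 300 bp, 0.152 in windows of 200 bp and 0.293 without replicate 1. With a replicate left out it ran from -0.703 to 0.293. The number of regions, 5439 on the arms, was 2010 with linkage at 50 bp, 7075 at 300 bp and 2198 with weak peaks above the median signal only. It lay between 8687 and 13389 with each replicate left out, where 2 lists had to share a region. There the other groups changed as well. Core regions had to be in both remaining thresholded lists, and strong summits of the omitted replicate no longer removed a region. Genes with a region numbered 1828 where a start site within 1 kb was required, against 3462.

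With each replicate left out, ACGTG at summit less flank ran from 0.757 to 1.15 percentage points, and over all alternatives from 0.0498 to 1.20. Promoters in recurring less core regions ran from -33.1 to -29.8 percentage points with a replicate left out (main value -27.5). GC content ran from 14.2 to 14.6 (13.6). Both main values lay outside these ranges. Against weak regions of 1 list the differences moved too. With a replicate left out, GC content ran from -1.72 to -0.540 (main value -1.74), promoters from 4.73 to 6.82 (8.96), coding exons from -5.83 to -3.60 (-7.10) and soft-masked bases from 0.622 to 1.99 (1.55). GC content was -0.108 there with column 12, the −log10 IDR, under 1, and -4.84 with weak peaks above the median signal, where GC at summit less flank was 0.159. With no replicate block the smallest exact p was 0.1, and GC content against core regions reached 0.1. Sequences off the arms were not measured beyond their count of regions, 5447 in all, since no name map to the reference was used. Read depth is unknown, which limits what a weak peak's absence from a list can show.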

Other observations

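Longer words around CACTG differed in how far they exceeded the flanks, counted in the 5439 summit windows of the recurring weak regions and as the mean of the 2 flank windows. TACACTG occurred 118 times at the summits and 44.5 times in the flanks, a ratio of 2.65. TGCACTG occurred 196 and 84.5 times, a ratio of 2.32, and CACTGAG 111 and 47 times, a ratio of 2.36. TCACTG occurred 237 and 212.5 times, a ratio of 1.12, and TCACTGA 30 and 48 times, a ratio of 0.63. The words were examined because CACTG led the 5-mers, so the ratios are a description, and what they come from was not tested.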
